A study of Mus musculus musculus x Mus musculus castaneus with 12 samples.

Results

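Expression of 10 subunits of the Polycomb repressive complexes was followed in RNA-seq of 12 samples of mouse ES cells (embryonic stem cells). The members were taken by gene symbol, in order to compare core PRC2 subunits (*Ezh1*, *Ezh2*, *Suz12*, *Eed*), accessory PRC2 subunits (*Jarid2*, *Mtf2*, *Phf19*) and PRC1 subunits (*Rnf2*, *Ring1*, *Bmi1*) between control and *Kdm6a* knockout cells. All 10 were found among the 24346 genes of the files, and all 10 passed the expression filter that left 14671 genes for testing. The cells are F1 hybrids between C57BL/6J (BL6) and Mus castaneus (cast), so SNPs tell the alleles of a gene apart. In the BC cross the mother was BL6 and in the CB cross she was cast. The BC cross gave 2 male wt samples, 2 female wt samples and 3 male *Kdm6a* KO samples, and the CB cross 2 male wt samples and 3 male *Kdm6a* KO samples. The KO samples are clones edited by CRISPR in the male lines. ΔE1 and ΔE3 (BC) and ΔE2.5 and ΔE2.7 (CB) carry a deletion within the coding exons, and ΔP4 (BC) and ΔP2.1 (CB) a deletion at the promoter. By the methods of the study, the exonic BC clones share their editing event. Its results section states that the wt CB line carries an actin-GFP transgene. The replicates of each wt group are labelled only by number, so p-values measure the spread between these samples and clones. No female KO cells were included. Cells were grown with LIF and serum on fibroblast feeders, which were reduced by plating on gelatin before harvest. Depth ranged from 49975599 to 89070402 fragments per sample, and was 49975599 to 53407103 in CB and 68457338 to 89070402 in BC.

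Polycomb proteins keep developmental genes silent in ES cells. PRC2 methylates lysine 27 of histone H3 through its catalytic subunit EZH2 or the paralogue EZH1, held in a core with SUZ12 and EED, while JARID2, MTF2 and PHF19 help to bring the complex to CpG islands. PRC1 attaches ubiquitin to histone H2A through the E3 ligases RNF2 (RING1B) or RING1 (RING1A), each paired with a PCGF protein such as BMI1. KDM6A removes the methyl groups that PRC2 places, KDM6B is a related demethylase, and UTY is the homologue of KDM6A encoded on the Y chromosome.

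All 10 genes are autosomal. In the GENCODE annotation of GRCm38, *Ezh1* lies at 101191115 to 101226463 and *Suz12* at 79993106 to 80034123 on chromosome 11, *Ezh2* at 47530139 to 47595341 on chromosome 6, and *Eed* at 89954654 to 89980983 on chromosome 7. *Jarid2* lies at 44729474 to 44921643 on chromosome 13, *Mtf2* at 108065674 to 108109004 on chromosome 5, and *Phf19* at 34893757 to 34914026 and *Bmi1* at 18677018 to 18686629 on chromosome 2. *Rnf2* lies at 151458004 to 151500955 on chromosome 1 and *Ring1* at 34020792 to 34024680 on chromosome 17. The library kit does not mark strand, so reads from overlapping genes cannot be told apart. *Mtf2* overlaps *Tmed5* by 2639 bp and *Rnf2* overlaps *Trmt1l* by 158 bp on the opposite strand. Of the 75-base windows of the *Bmi1* transcript, 11.2% also occur in the annotated gene *Gm5946*, and the shares held by other genes were 9.38% for *Eed* and 8.08% for *Mtf2*.

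The deletions were made with pairs of guide RNAs, shown here because they define the KO samples. The protospacer is in lower case and the PAM, the motif next to it that Cas9 needs, in capitals.
ΔE Left: gaaacctcacgaacccgaaaAGG
ΔE Right: tagcattatctgcataccagAGG
ΔP Left: ggacactgcatgtttgatggAGG
ΔP Right: agctacatactccaaaggagAGG
The ΔE Left guide matched the minus strand of exon 2 of *Kdm6a* at chrX:18163387-18163409 (GRCm38). The other guides had no match within the spliced transcript, and a genome sequence was not used here.

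*Kdm6a* was lower in every KO clone than in both wt replicates of its cross. It was at 49.8 and 51.3 TPM in male BC wt, and at 11.6 and 13.5 TPM in the exonic clones ΔE1 and ΔE3, but only 0.0441 TPM in the promoter clone ΔP4. In male CB wt it was at 51.0 and 51.7 TPM, and at 2.07, 7.28 and 0.0364 TPM in ΔE2.5, ΔE2.7 and ΔP2.1. TPM is the number of fragments per unit of transcript length, scaled to the same total in each sample. Because the counts cover all exons of a gene, reads from undeleted exons remain in the value of the exonic clones. The fitted log2 fold change was -2.61 ± 1.31 (SE) in BC and -3.96 ± 1.39 (SE) in CB. Neither passed the edgeR test (adjusted p = 0.367 and 0.172), and the exonic and promoter clones of a cross differed widely. *Kdm6b* was at 26.7 and 34.5 TPM in male BC wt and from 21.96 to 30.9 TPM in the BC clones. It was at 26.7 and 27.8 TPM in male CB wt and from 23.6 to 30.4 TPM in the CB clones, so the groups overlapped in both crosses. *Uty* was at 9.29 and 9.64 TPM in male BC wt, against 11.3, 2.02 and 23.7 TPM in ΔE1, ΔE3 and ΔP4. In CB it was at 20.8 and 21.4 TPM in wt and from 14.4 to 18.6 TPM in the clones.

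The labelled cell type was checked against its markers. All 8 ES cell markers, among them *Pou5f1*, *Sox2*, *Nanog* and *Zfp42*, were above 1 TPM in every sample, and their summed level ran from 6656 TPM in a male CB wt replicate to 17432 TPM in a female BC wt replicate. Of 10 fibroblast markers, 8 were above 1 TPM in at least 1 sample. Their sum was 36.01 and 38.6 TPM in male BC wt and from 14.7 to 28.0 TPM in the BC clones. In female BC wt it was 73.6 and 74.4 TPM. It was 90.5 and 96.6 TPM in male CB wt, and 32.9, 48.0 and 142 TPM in ΔE2.5, ΔE2.7 and ΔP2.1. *Col1a1*, the most abundant of the list over all samples, reached 102 TPM in ΔP2.1, whereas *Col6a3* and *Lum* stayed below 1 TPM everywhere. Of 5 trophoblast markers, 4 were above 1 TPM in at least 1 sample, led by *Krt18*, which other epithelial cells also express. The sum of this list was 161 and 169 TPM in male BC wt, and 73.4 to 336 TPM in the BC clones. It stood at 1702 and 1715 TPM in male CB wt, and at 509, 995 and 1210.1 TPM in ΔE2.5, ΔE2.7 and ΔP2.1. *Elf5* was below 1 TPM in every sample. The sums of 7 extraembryonic endoderm markers (16.8 to 38.8 TPM) and 4 neural markers (81.9 to 239.9 TPM) moved less. The part of these other cells or states in the results below was not tested, and in bulk samples fewer cells of a type cannot be told apart from less RNA per cell.

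Within wt cells the subunits spanned a wide range of levels per length. In male BC wt the order was *Jarid2* (419 ± 26.9 TPM, SD, n = 2), *Eed* (413 ± 1.07), *Ezh2* (252 ± 2.16), *Suz12* (211 ± 12.5), *Mtf2* (185 ± 3.02), *Rnf2* (129 ± 6.27), *Phf19* (31.5 ± 0.272), *Ezh1* (21.7 ± 0.433), *Ring1* (17.9 ± 2.99) and *Bmi1* (5.07 ± 0.463). *Jarid2* and *Eed* overlapped, and no other neighbours in this order did. In male CB wt *Eed* was highest at 265 ± 0.646 TPM (SD, n = 2), followed by *Jarid2* at 237 ± 5.21, *Suz12* at 228 ± 6.42 and *Ezh2* at 176 ± 1.40 TPM. In female BC wt *Suz12*, at 303 ± 6.65 TPM (SD, n = 2), was above both *Jarid2* and *Ezh2*. The same paralogue of each pair prevailed in all samples. *Ezh1* made up 6.84% to 15.2% of the summed TPM of *Ezh1* and *Ezh2*, and *Ring1* made up 9.69% to 16.02% of the sum of *Ring1* and *Rnf2*. *Bmi1* made up 2.30% to 5.97% of the sum of *Bmi1* and *Pcgf2*, its closest PCGF relative. The levels depended on the assumed transcript length. With the union of all exons in place of a single transcript they were 0.611 to 1.34 times as high.

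**Figure D1:**
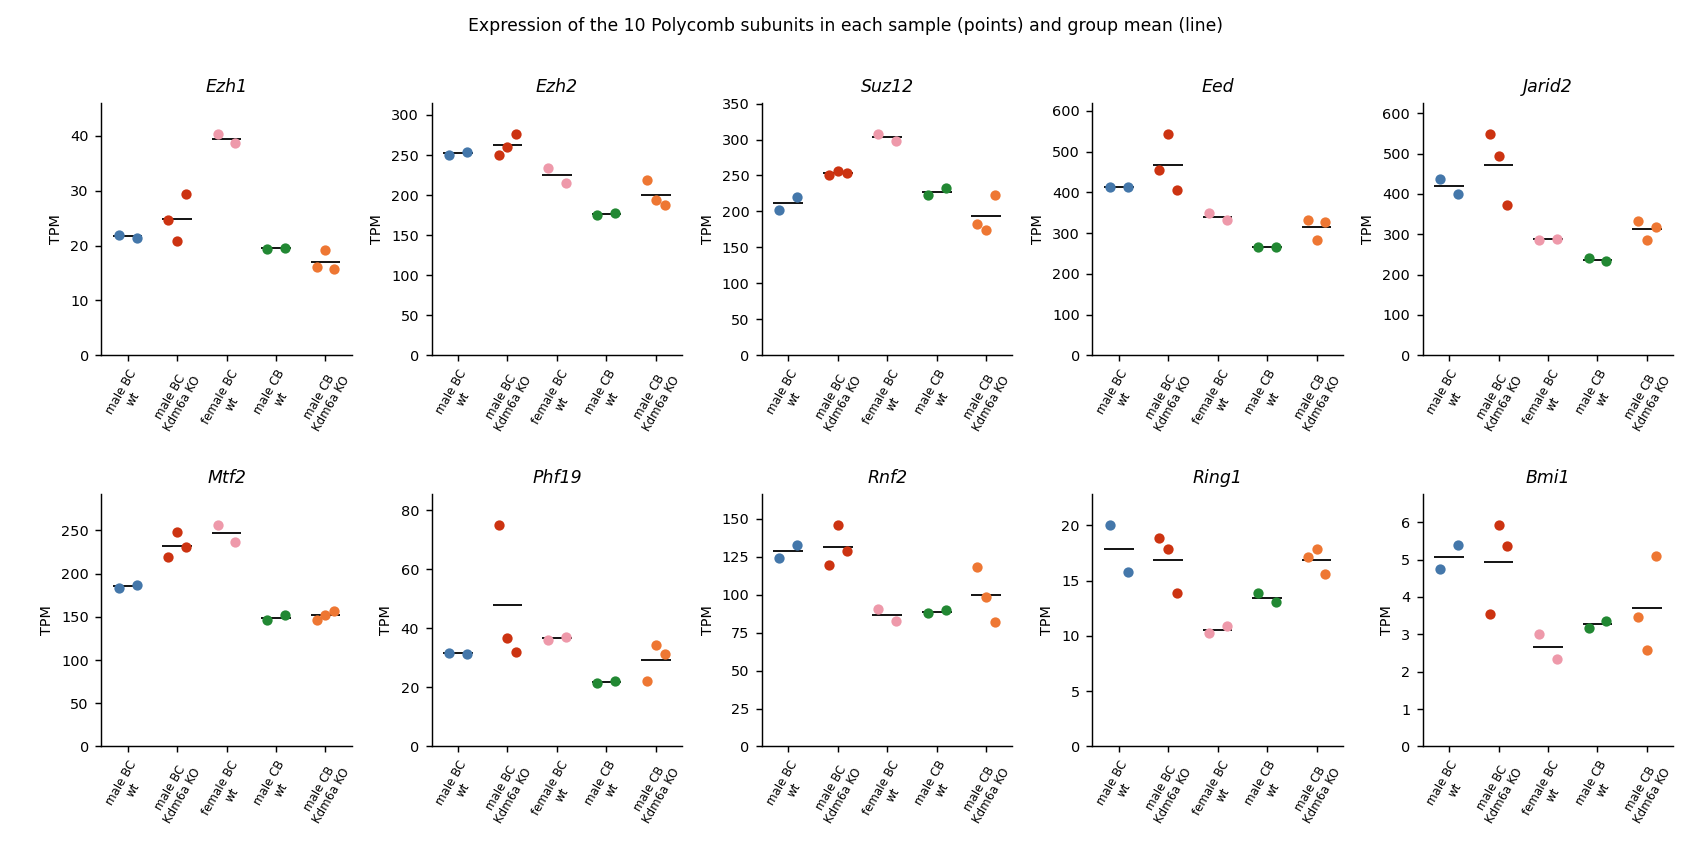
Expression of each subunit in TPM (vertical axes, from 0, each panel with its own scale) in the 12 samples, grouped by sex, cross and genotype along the horizontal axis. Points are samples and lines are group means; the 2 female samples stand above all others for *Ezh1*, at 38.7 and 40.4 TPM, and ΔE1 stands alone for *Phf19*, at 74.9 TPM.

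None of the core PRC2 subunits passed the threshold between *Kdm6a* KO and wt in either cross. *Ezh2*, the main methyltransferase, was at 251 and 254 TPM in male BC wt and at 249, 261 and 276 TPM in ΔE1, ΔE3 and ΔP4. The BC groups overlapped, with a fold of 1.01 (95% interval 0.884 to 1.15). In CB *Ezh2* was at 175 and 177 TPM in wt and at 219, 194 and 187 TPM in ΔE2.5, ΔE2.7 and ΔP2.1, so that every clone was above both wt replicates. The fold was 1.19 (95% interval 1.04 to 1.36, adjusted p = 0.171 in edgeR). *Eed*, which binds methylated H3K27 and stimulates the enzyme, was at 413 and 414 TPM in male BC wt and at 455, 543 and 406 TPM in the clones in the same order. The CB wt replicates had 265 and 266 TPM of *Eed*, and the clones 332, 283 and 327 TPM, all above wt (1.24-fold, 95% interval 1.02 to 1.51, adjusted p = 0.235 in edgeR). *Suz12*, the scaffold of the core, had folds on opposite sides of 1 in the crosses. It was at 202 and 220.02 TPM in male BC wt and at 251, 257 and 253 TPM in the BC clones, all higher. The CB values were 223 and 232 TPM in wt and 182, 174 and 223 TPM in the clones. The folds were 1.17 (95% interval 0.992 to 1.37) in BC and 0.889 (95% interval 0.757 to 1.04) in CB. *Ezh1* was at 21.97 and 21.4 TPM in male BC wt and at 24.6, 20.8 and 29.4 TPM in the clones. In the CB cross *Ezh1* was at 19.4 and 19.6 TPM in wt and at 16.1, 19.2 and 15.7 TPM in the clones, all lower, with a fold of 0.916 (95% interval 0.749 to 1.12).

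None of the accessory subunits was called in either cross. *Jarid2*, which recruits PRC2 and stimulates it, was at 438 and 399.8 TPM in male BC wt and at 549, 495 and 372 TPM in ΔE1, ΔE3 and ΔP4, on both sides of wt. In CB *Jarid2* was at 241 and 234 TPM in wt and at 333, 286 and 317 TPM in ΔE2.5, ΔE2.7 and ΔP2.1, all above wt. Its CB fold of 1.38 (95% interval 1.09 to 1.74) was not called in edgeR (adjusted p = 0.158). *Mtf2*, a Polycomb-like protein that binds CpG-rich DNA, was at 183 and 187 TPM in male BC wt and at 219, 248 and 230.4 TPM in the BC clones. All BC clones were higher, and the fold of 1.22 (95% interval 1.07 to 1.39) had the lowest adjusted p of the 10 members in BC (0.145 in edgeR). In CB *Mtf2* was at 147 and 152 TPM in wt and at 146, 152 and 156 TPM in the clones, with a fold of 1.07 (95% interval 0.934 to 1.22). *Phf19*, another Polycomb-like protein, was at 31.7 and 31.3 TPM in male BC wt and at 74.9, 36.8 and 31.98 TPM in the clones. Clone ΔE1 stood apart from the other 2 clones, including ΔE3 of the same editing event. The log2 fold change in BC was 0.57 ± 0.32 (SE), and 0.07 without ΔE1. In CB *Phf19* was at 21.5 and 22.1 TPM in wt and at 22.2, 34.5 and 31.2 TPM in the clones, with a log2 fold change of 0.49 ± 0.32 (SE).

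Among the PRC1 subunits no difference between KO and wt was called either. *Rnf2*, the main H2A ligase, was at 124 and 133 TPM in male BC wt and at 119, 146 and 129 TPM in ΔE1, ΔE3 and ΔP4. In CB it was at 87.8 and 89.9 TPM in wt and at 118, 98.6 and 81.8 TPM in ΔE2.5, ΔE2.7 and ΔP2.1, so that both exonic clones were above wt and the promoter clone below. The genes of chromosome 1, on which *Rnf2* lies, as a whole differed in the same clones. The median log2 ratio of chromosome 1 genes to CB wt was 0.50 in ΔE2.5, 0.43 in ΔE2.7 and -0.08 in ΔP2.1, beside 0.48, 0.23 and -0.06 for *Rnf2*. Over all autosomal genes the median ratio was 0.00, 0.00 and -0.01. Without ΔE2.5 the log2 fold change of *Rnf2* in CB was 0.10 in place of 0.23. *Ring1* was at 20.02 and 15.8 TPM in male BC wt and at 18.9, 17.8 and 13.8 TPM in the clones. In CB *Ring1* was at 13.9 and 13.05 TPM in wt and at 17.1, 17.8 and 15.6 TPM in the clones, all higher, with a fold of 1.31 (95% interval 1.00 to 1.72, adjusted p = 0.259 in edgeR). *Bmi1* was low throughout, at 4.74 and 5.40 TPM in male BC wt and 3.55 to 5.92 TPM in the clones, and at 3.16 and 3.37 TPM in male CB wt and 2.58 to 5.09 TPM in the clones. Its intervals were the widest among the PRC1 subunits, with a fold of 0.946 (95% interval 0.614 to 1.46) in BC and of 1.19 (95% interval 0.763 to 1.86) in CB.

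In total, edgeR called 0 of 10 members in either cross by its threshold (adjusted p below 0.05 and 1.5-fold or more in either direction). The same rule called 0.416% of all tested genes in BC and 0.382% in CB, so that 0 of 10 is near the background and is no result about these genes. At an unadjusted p under 0.05 there was 1 member in BC (*Mtf2*) and there were 4 in CB (*Ezh2*, *Eed*, *Jarid2* and *Ring1*), against 15.8% and 18.9% of all tested genes. DESeq2 likewise called 0 of the 10 in each cross, while it called 434 genes in BC and 489 in CB. In TPM, every KO clone was above both wt replicates for 3 members in BC (*Suz12*, *Mtf2* and *Phf19*), and below them for 0. That held for 20.9% of all genes in the upward direction and 11.0% in the downward direction. For *Phf19* the gap was small, as ΔP4 was at 31.98 TPM and the higher wt replicate at 31.7 TPM. In CB every clone was above wt for 5 members (*Ezh2*, *Eed*, *Jarid2*, *Phf19* and *Ring1*) and below for 1 (*Ezh1*), against 14.5% and 31.2% of all genes. For *Phf19* the gap was again small, as ΔE2.5 was at 22.18 TPM and the higher wt replicate at 22.14 TPM. It was small for *Ezh1* as well, with ΔE2.7 at 19.24 TPM and the lower wt replicate at 19.39 TPM. The median log2 fold change of the members was 0.14 in BC and 0.25 in CB, beside 0.01 and 0.00 for all tested genes.

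**Figure D2:**
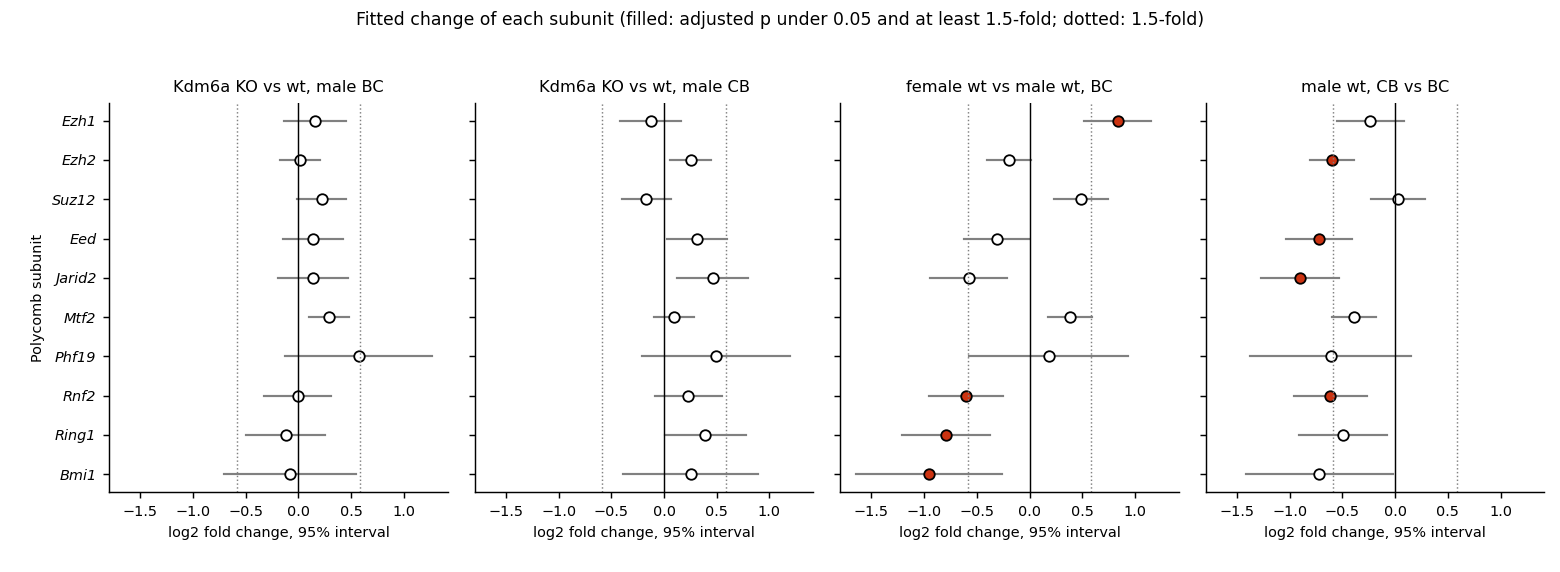
Log2 fold change of each subunit (horizontal axes) with its 95% interval in 4 comparisons, from the edgeR fit over all 12 samples; filled points passed an adjusted p under 0.05 and at least 1.5-fold. No point is filled in the KO panels, while 4 are filled for female against male wt and 4 for CB against BC wt.

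**Figure D3:**
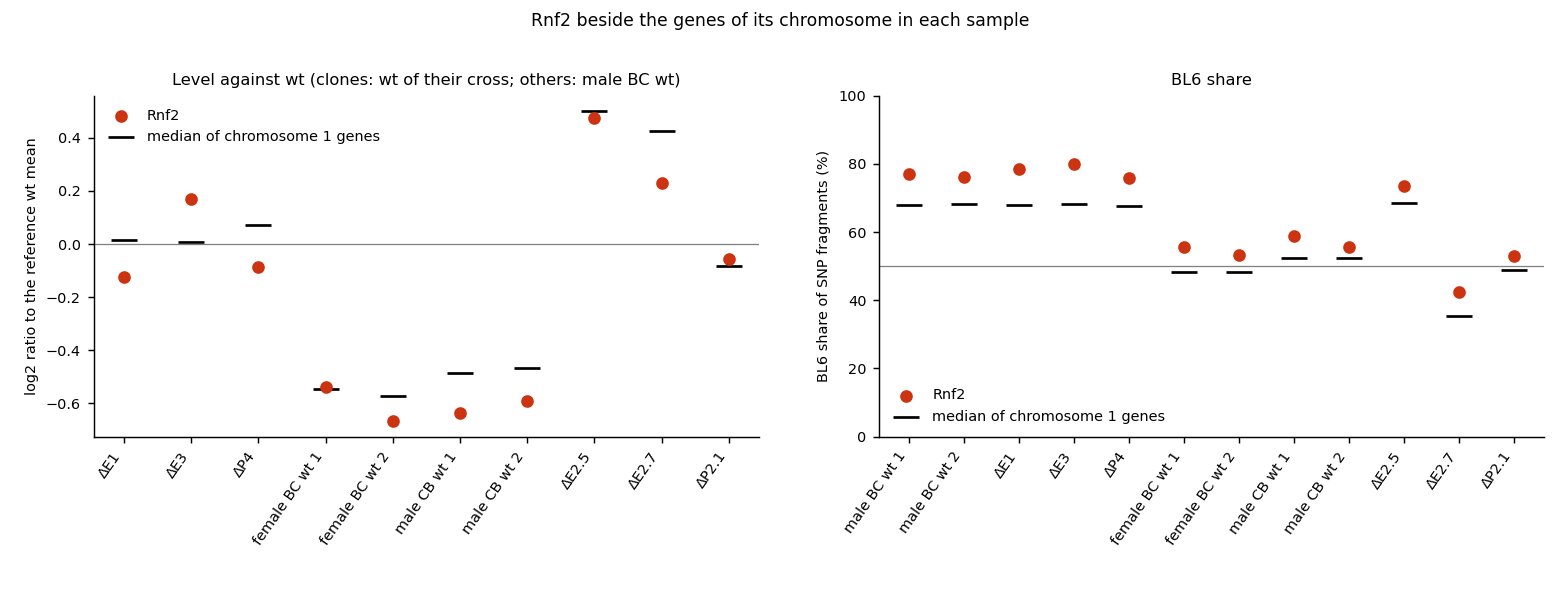
*Rnf2* (red points) and the median of chromosome 1 genes (black lines) in each sample, as log2 ratio (left) and as BL6 share of SNP fragments in percent (right). The log2 ratio of *Rnf2* is nearest to its chromosome in the female replicate 1 (-0.54 beside -0.55) and farthest in ΔE2.7 (0.23 beside 0.43), and its BL6 share is above the chromosome 1 median in all 12 samples.

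The KO change was also compared between the crosses as an interaction term in the same fit. None of the 10 members passed, whereas 0.648% of all tested genes did, and 1 member was at an unadjusted p under 0.05, beside 19.8% of all genes. That was *Suz12*, for which the CB change minus the BC change was -0.39 ± 0.15 on the log2 scale (SE, adjusted p = 0.187 in edgeR). The corresponding difference was 0.52 ± 0.24 for *Ring1*, 0.33 ± 0.21 for *Jarid2* and 0.24 ± 0.12 for *Ezh2* (SE, adjusted p = 0.268, 0.416 and 0.303 in edgeR). The intervals of the ratio of folds spanned 0.481 to 2.34 over the 10 members.

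Female and male wt cells of the BC cross were compared next. This comparison and those of male BC wt with its clones and with CB wt share the same male BC wt samples, as the KO and wt comparisons of CB share the CB wt samples. In all, 4 of 10 members were called in edgeR, beside 38.7% of all tested genes, so that the count is near the background and says nothing particular about the members. The fibroblast marker sum was 73.6 and 74.4 TPM in the female samples against 36.01 and 38.6 TPM in males, mostly from *Thy1* (67.4 and 66.3 TPM against 20.6 and 19.6 TPM), while *Col1a1* was at 2.86 and 3.02 TPM against 9.23 and 7.45 TPM. The trophoblast sum was 114 and 125 TPM in females, below the male values. The ES cell marker sum was 17432 and 16204 TPM in females against 9339 and 8072 TPM in males. The neural sum was lower in females, at 81.9 and 84.4 TPM against 147 and 130 TPM, and the extraembryonic endoderm sum was lower too. The lower endoderm sum came from *Dab2*, at a mean of 6.74 TPM in females against 21.7 TPM in males. *Gata4*, *Gata6*, *Sox17*, *Sox7* and *Pdgfra* of that list had higher means in females, and *Afp* was below 1 TPM throughout. The part of these markers in the comparison was not tested. *Ezh1* was higher in female cells, at 40.4 and 38.7 TPM against 21.97 and 21.4 TPM in males (1.78-fold, 95% interval 1.43 to 2.22, adjusted p = 0.000832). It made up 14.7% and 15.2% of the *Ezh1* and *Ezh2* sum in females, against 8.06% and 7.76% in males. The other calls were for the PRC1 members, all lower in females. *Rnf2* was at 90.6 and 82.5 TPM in females against 124 and 133 TPM in males, with a log2 fold change of -0.60 ± 0.16 (SE, adjusted p = 0.00841 in edgeR). The genes of chromosome 1 had a median log2 ratio of -0.55 and -0.57 in the female samples, beside -0.54 and -0.67 for *Rnf2*. *Ring1* was at 10.2 and 10.9 TPM against 20.02 and 15.8 TPM, a log2 fold change of -0.79 ± 0.19 (SE, adjusted p = 0.00543 in edgeR). *Bmi1* was at 3.01 and 2.33 TPM against 4.74 and 5.40 TPM, a log2 fold change of -0.96 ± 0.32 (SE, adjusted p = 0.0260 in edgeR). Chromosome 17, with *Ring1*, and chromosome 2, with *Bmi1*, had medians of 0.04 to 0.07 in the female samples. The *Bmi1* call was lost with any of the 4 samples left out (-1.15 to -0.79). The *Ring1* call was lost without the male wt replicate 1 (-0.64), and the *Rnf2* call without the male wt replicate 2 or the female replicate 2 (-0.54 each time).

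A further 3 members passed the adjusted p but not the 1.5-fold threshold between female and male cells, giving 7 of 10 at an adjusted p under 0.05 beside 51.0% of all genes. *Suz12* was higher in females, at 308 and 298 TPM against 202 and 220.02 TPM (1.40-fold, adjusted p = 0.00512 in edgeR). *Mtf2* was higher at 256 and 237 TPM against 183 and 187 TPM (1.30-fold, adjusted p = 0.00654). *Jarid2* was lower at 286 and 289 TPM against 438 and 399.8 TPM (0.671-fold, adjusted p = 0.0137), and was called without the male wt replicate 2 (log2 fold change -0.63). *Ezh2* and *Eed* were not called, with folds of 0.873 (95% interval 0.754 to 1.01) and 0.805 (95% interval 0.649 to 0.998). *Phf19* had a fold of 1.13 (95% interval 0.672 to 1.91).

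Between the male wt lines, *Jarid2*, *Eed*, *Ezh2* and *Rnf2* were lower in CB than in BC. The log2 fold change was negative for 9 of 10 members and for 51.9% of all tested genes, with a median of -0.61 for the members and -0.03 for all genes. In edgeR 4 of the 10 were called, all lower in CB, beside 27.9% of all genes, and 5 of 10 passed the adjusted p alone beside 38.0% of all genes. *Jarid2* differed most, at 241 and 234 TPM in CB against 438 and 399.8 TPM in BC (0.535-fold, 95% interval 0.415 to 0.691, adjusted p = 0.00218). *Eed* was at 265 and 266 TPM against 413 and 414 TPM (0.606-fold, 95% interval 0.488 to 0.752, adjusted p = 0.00296). *Ezh2* was at 175 and 177 TPM against 251 and 254 TPM, a log2 fold change of -0.60 ± 0.10 (SE, adjusted p = 0.00107). This is close to the threshold, and in 6 alternatives of processing the value was -0.57 to -0.58 and was not called, as also without the male BC wt replicate 2 (-0.58). *Rnf2* was at 87.8 and 89.9 TPM against 124 and 133 TPM, a log2 fold change of -0.62 ± 0.16 (SE, adjusted p = 0.0114 in edgeR), while chromosome 1 genes had medians of -0.49 and -0.47 in the CB samples. The *Rnf2* call was lost without the male BC wt replicate 2 or without either CB wt replicate (-0.64 to -0.56). *Mtf2* passed the adjusted p only (0.761-fold, adjusted p = 0.00827). *Suz12* had a fold of 1.02 (95% interval 0.853 to 1.21). *Ring1* was not called, with a log2 fold change of -0.49 (adjusted p = 0.0612), but was called at -0.80 when reads mapped to the BL6 genome alone were counted. In CB wt the trophoblast and fibroblast marker sums given above were also higher than in male BC wt. The extraembryonic endoderm sum was higher too, although *Sox7* of that list was lower (mean 1.07 TPM against 1.32 TPM). The neural sum was also higher (240 and 236 TPM against 147 and 130 TPM). That came from *Nes* (mean 94.8 TPM against 22.2 TPM) and *Tubb3* (139 TPM against 101 TPM). The other neural markers were lower in CB wt, *Sox1* at 1.51 TPM against 9.11 TPM and *Pax6* at 2.27 TPM against 6.07 TPM. The ES cell marker sum was lower in CB wt, at 6745 and 6656 TPM against 9339 and 8072 TPM. *Nanog* alone of that list had a higher mean in CB wt, at 321 TPM against 215 TPM. The part of these markers in the differences was not tested, nor can the transgene of the CB line be told apart from the cross.

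Allele-specific expression was read from fragments with a SNP, as the percentage that carried the BL6 allele. The files label the BL6 fragments in the same way in both crosses. *Ezh2*, *Suz12* and *Eed* were close to equal, with group means of 46.8% to 48.9%, 51.7% to 53.4% and 46.5% to 53.3%. *Jarid2* was expressed more from BL6 in all groups (57.2% to 59.9%), as was *Ezh1* (57.7% to 64.3%), whereas the medians of their chromosomes were 48.0% to 52.6% and 48.6% to 51.8%. *Phf19* was expressed mostly from cast, with 20.7% to 33.5% BL6 fragments over the 12 samples. *Ring1* was expressed mostly from BL6 in CB, at 88.8% and 90.3% in male CB wt (95% Wilson intervals 83.0% to 92.8% and 84.6% to 94.0%) and 86.7% to 89.7% in the CB clones. It was 70.6% and 67.9% in male BC wt, from 66.2% to 73.9% in the BC clones and 70.6% and 59.2% in females, on 103 to 231 SNP fragments. *Bmi1* had only 42 to 125 SNP fragments, and its share varied from 43.5% to 71.7%. These intervals cover counting error only.

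*Rnf2* and *Mtf2* had BL6 shares that differed between groups. *Rnf2* was at 77.1% and 76.0% in male BC wt and at 78.4%, 79.9% and 76.0% in ΔE1, ΔE3 and ΔP4, beside a median of 67.7% to 68.2% for chromosome 1 genes in these samples. It was at 55.7% and 53.2% in female BC wt and at 58.8% and 55.7% in male CB wt, where the chromosome 1 median was 48.3% to 52.5%. Within the CB clones the share was 73.6% in ΔE2.5 (chromosome 1 median 68.4%), 42.4% in ΔE2.7 (35.3%) and 52.9% in ΔP2.1 (48.7%). *Rnf2* was thus above the median of its chromosome in all 12 samples. *Mtf2* was at 56.0% and 57.6% in male BC wt and 56.3% to 57.2% in the BC clones, against 41.0% and 41.1% in female BC wt, where the median of chromosome 5 was 45.2% and 44.9%. In CB it was at 49.1% and 46.5% in wt and 44.3% to 46.1% in the clones. Differences between groups in these shares were not tested.

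The change of the BL6-to-cast ratio between KO and wt was tested within each cross in 9934 autosomal genes that had 20 or more SNP fragments per sample. None of the 10 members was called in edgeR, beside 0.0% of all genes in BC and 0.0101% in CB. At an unadjusted p under 0.05 there were 0 members. The share of all genes is not given for this, so nothing is read from that count. The change with the lowest p was that of *Phf19* in CB. Its BL6 share was 24.6% and 33.5% in wt and 22.3%, 20.7% and 25.0% in ΔE2.5, ΔE2.7 and ΔP2.1, a log2 ratio change of -0.47 ± 0.22 (SE, adjusted p = 0.935 in edgeR). It rested on the wt replicate 2, without which it was -0.15, while without the wt replicate 1 it was -0.77. For *Ezh2*, *Eed* and *Jarid2*, the members with the most SNP fragments after filtering, the 95% intervals of the log2 change lay between -0.23 and 0.29 in both crosses. For *Rnf2* they were far wider, from -0.96 to 0.94 in CB.

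**Figure D4:**
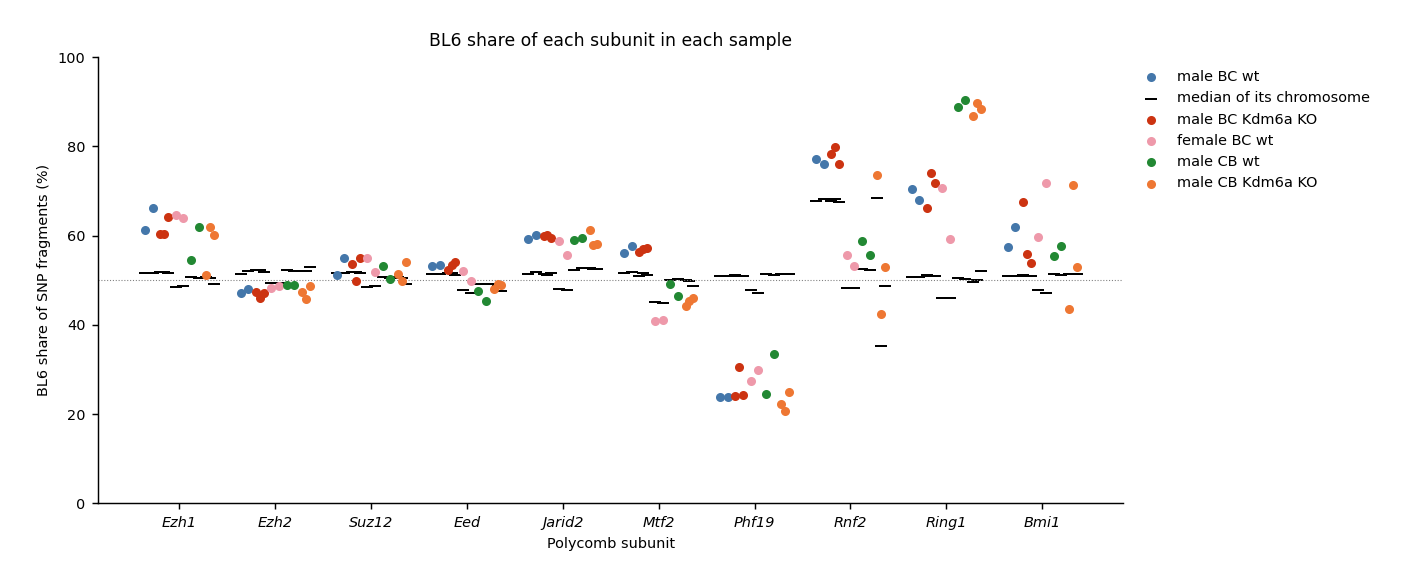
BL6 share of SNP fragments in percent (vertical axis, 0 to 100) for each subunit, with samples as points coloured by group and the median over genes of the same chromosome in each sample as black lines; the dotted line is 50%. *Phf19* lies between 20.7% and 33.5%, and *Ring1* in CB between 86.7% and 90.3%.

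Of 42 other genes of the Polycomb system on a list of PRC2 partners, canonical and variant PRC1 subunits and the H2A deubiquitinase PR-DUB, 40 were found in the files and tested. Of these, 0 were called in edgeR in either KO comparison, beside 0.416% and 0.382% of all tested genes. At an unadjusted p under 0.05 there were 7 in BC and 10 in CB, beside 15.8% and 18.9% of all genes. Their median log2 fold change was -0.03 in BC and 0.00 in CB, beside 0.01 and 0.00 for all genes. *Epop* and *Ezhip* were not found under these symbols and were not analysed here. In PRC2, *Phf1*, a Polycomb-like protein, was at 7.31 and 5.95 TPM in male BC wt and 7.24 to 8.17 TPM in the clones (log2 fold change 0.17), and *Lcor*, which also encodes a PRC2 partner, had a log2 fold change of 0.09 in BC and -0.25 in CB. *Rbbp4*, a histone-binding subunit, had a log2 fold change of 0.11 in CB.

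For 5 of the 40 genes, and for 9.14% of all tested genes, the clones were on opposite sides of wt in the crosses without overlap in either. The share is near that of all genes. The genes were *Bcor*, *Cbx8*, *Scmh1*, *Scml2* and *Mbd5*, and since they are picked here for this pattern, the difference between the crosses is given for them with no test. *Bcor*, an X-linked corepressor of a variant PRC1, was at 43.2 and 39.7 TPM in male BC wt and at 34.9, 28.3 and 34.03 TPM in ΔE1, ΔE3 and ΔP4, all lower. In CB *Bcor* was at 36.5 and 37.0 TPM in wt and at 55.4, 41.8 and 46.1 TPM in ΔE2.5, ΔE2.7 and ΔP2.1, all higher. The difference of the KO change between the crosses was 0.84 ± 0.17 on the log2 scale (SE). *Scmh1*, a canonical PRC1 subunit, was at 21.6 and 21.01 TPM in male BC wt and at 30.4, 29.98 and 28.2 TPM in the BC clones, with an adjusted p = 0.0780 in edgeR, the lowest of the list in BC. In CB *Scmh1* was at 23.8 TPM in both wt replicates and 20.1 to 21.8 TPM in the clones. *Cbx8*, the chromobox subunit that binds methylated H3K27, had a log2 fold change of -0.56 in BC and 0.39 in CB at levels of 0.759 to 1.29 TPM. The difference was -0.54 for *Scmh1*, 0.96 for *Cbx8*, -0.72 for *Scml2* and -0.60 for *Mbd5*. *Scml2*, also X-linked, was at 5.90 and 5.995 TPM in male CB wt and 2.74 to 4.95 TPM in the CB clones. *Pcgf5* was at 45.3 and 48.6 TPM in male CB wt and 27.7 to 33.3 TPM in the CB clones (log2 fold change -0.51, adjusted p = 0.122 in edgeR). The lowest adjusted p in CB were those of *Cbx7* (log2 fold change 0.36, 0.0668) and *Pcgf6* (0.36, 0.0737), both PRC1 subunits named after their values were seen, for which every clone was above wt. *Bcorl1*, a relative of *Bcor*, had a log2 fold change of -0.37 in BC. In PR-DUB, the log2 fold change was 0.27 for *Mbd6* and -0.24 for *Asxl3* in BC, and -0.40 for *Mbd5* and -0.38 for *Asxl3* in CB.

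**Figure D5:**
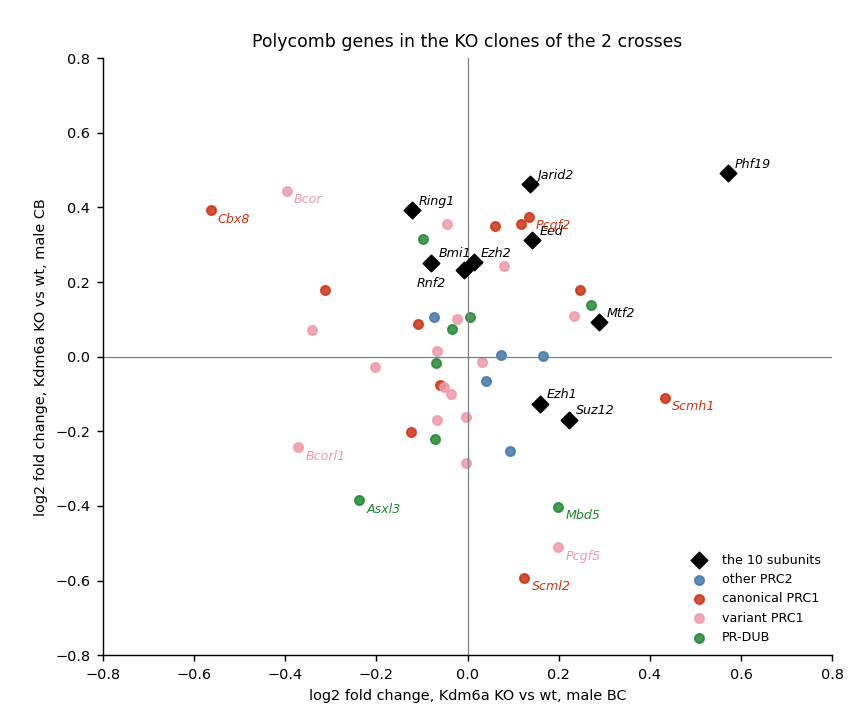
Log2 fold change between KO and wt in the BC cross (horizontal axis) and the CB cross (vertical axis) for the 10 subunits (black diamonds) and 40 other Polycomb genes (circles, coloured by complex). *Bcor* and *Cbx8* lie at the upper left, at -0.40 and -0.56 in BC, *Phf19* at the upper right, and *Scml2* and *Pcgf5* at the bottom, at -0.59 and -0.51 in CB.

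Between the wt lines, 6 of the 40 genes were called higher and 4 lower in female than in male BC wt, beside calls for 38.7% of all tested genes. In CB against BC male wt 7 were called higher and 0 lower, beside 27.9% of all genes. *Rbbp7*, the X-linked partner of *Rbbp4* in PRC2, was at 657 and 649 TPM in females against 341 and 335 TPM in males (1.89-fold, adjusted p = 0.000146 in edgeR), and at 582 and 586 TPM in male CB wt (1.63-fold over BC, adjusted p = 0.00134). The latter call was lost when only reads mapped to the BL6 genome were counted (log2 fold change 0.44 in place of 0.71). *Scml2* was at 12.6 and 11.4 TPM in females and at 5.90 and 5.995 TPM in CB, against 1.24 and 1.31 TPM in male BC wt. *Bcorl1* was also higher in females, at 17.5 and 16.2 TPM against 4.96 and 3.68 TPM, and so were *Pcgf5*, *Phc3* and *Lcor* (log2 fold change 0.72, 0.70 and 0.73). Lower in females were *Bcor* (-0.64), *Kdm2b* (-0.61), which recruits a variant PRC1 to CpG islands, *Asxl1* (-0.70) and *Asxl3* (-1.69). The *Lcor* call was lost with any of the 4 samples left out (0.68 to 0.77), with RLE scaling and without the filter. That of *Kdm2b* was lost without either male replicate or the female replicate 1 (-0.53 at the smallest), with upper quartile scaling and with a minimum of 5 TPM. In CB, *Phc2* (0.68), *Pcgf5* (0.86), *E2f6* (0.79), *Asxl3* (0.69) and *Rybp* (0.68) were higher than in BC. The *Asxl3* call was lost with any of the 4 samples left out (0.68 to 0.71) and without the filter. The *Rybp* call was lost without the male BC wt replicate 2 or either CB wt replicate, and its direction depended on mapping, with a log2 fold change of -0.13 when reads were mapped to the BL6 genome alone.

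A list of 25 developmental regulators known as Polycomb targets in ES cells was also followed, of which 20 passed the expression filter. Some of them were well expressed in these cells, such as *Bmp4* at 26.6 to 83.5 TPM in wt, so that the list as a whole was not silent. In edgeR 0 of 20 were called in either KO comparison, beside 0.416% and 0.382% of all tested genes, and 2 were at an unadjusted p under 0.05 in each, beside 15.8% and 18.9%. The median log2 fold change was 0.29 in BC and 0.26 in CB, beside 0.01 and 0.00 for all genes. It was positive for 16 of the 20 targets in BC but for only 11 of the 20 in CB. In BC the highest log2 fold changes were those of *Hand1* and *Tbx3*. *Tbx3* was at 7.44 and 6.54 TPM in wt and at 14.3, 24.9 and 13.3 TPM in ΔE1, ΔE3 and ΔP4 (log2 fold change 1.29 ± 0.36, SE, adjusted p = 0.122 in edgeR), and DESeq2 called it. Of the 8 ES cell markers, *Nanog*, *Zfp42* and *Esrrb* were above both wt replicates in every BC clone (305 to 479 TPM against 201 and 228 TPM for *Nanog*), and the other markers overlapped wt. The summed level of the list was 9339 and 8072 TPM in wt and 10723, 10568 and 7761 TPM in ΔE1, ΔE3 and ΔP4, and its part in the difference of *Tbx3* was not tested. *Hand1* was high in ΔE1 alone (7.71 TPM against 1.36 and 1.22 TPM in wt), with a log2 fold change of 1.31, and of -0.38 without that clone. The lowest were those of *Hoxb1* (-0.99) and T, the brachyury gene (-0.96). *Hoxb1* was at 0.370 and 0.218 TPM in ΔE1 and ΔE3 but at 1.287 TPM in ΔP4, level with wt (1.286 and 1.101 TPM), and its log2 fold change was -2.02 without ΔP4. In CB, *Pax6* was at 2.101 and 2.44 TPM in wt and at 7.84, 3.27 and 8.16 TPM in ΔE2.5, ΔE2.7 and ΔP2.1 (log2 fold change 1.57 ± 0.36, SE, adjusted p = 0.0804 in edgeR). *Foxa2* was at 15.9 TPM in both CB wt replicates and at 5.07, 7.64 and 2.16 TPM in the clones (-1.61 ± 0.41, SE, adjusted p = 0.103 in edgeR). DESeq2 called both. The next values in each direction were those of *Olig2* (1.06) and *Bmp4* (-0.40). *Olig2* was at 0.516 TPM in ΔE2.5, while the other CB clones, at 0.143 and 0.150 TPM, lay between the wt replicates at 0.105 and 0.168 TPM, and it passed the filter only through BC samples. *Bmp4* was at 14.5, 32.9 and 59.97 TPM in the CB clones, on both sides of wt (49.4 and 49.2 TPM).

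Between the wt lines, 4 of the 20 targets were called higher and 7 lower in female than male BC wt, beside 38.7% of all tested genes. Of the higher ones, *Gata6* (log2 fold change 1.18 to 1.23) and *Bmp4* (1.35 to 1.57) lost their calls with any of the 4 samples left out. The *Bmp4* call was also lost with RLE scaling, DESeq2 and the BL6 genome alone. *Hoxd13*, called lower, lost its call without the female replicate 1 (-1.80 to -1.53 over the 4). *Tbx3* was at 151 TPM in both female samples and at 7.44 and 6.54 TPM in males. Of the called genes, *Pax2* passed the expression filter only through the female samples, and *Olig2* and *Hoxb1* only through male BC samples (wt and clones), where each was high. *Pax3*, called in both comparisons of wt lines, passed only through the CB clone ΔP2.1 (1.092 TPM), with all wt samples below 1 TPM. Nothing is read from the calls of these genes. *Pax2* was at 1.061 and 1.075 TPM in females and below 1 TPM in all other samples. *Olig2* was at 0.636 and 0.567 TPM in females against 33.8 and 32.2 TPM in males, and *Hoxb1* was at 0 TPM in both female samples against 1.29 and 1.101 TPM. Between CB and BC male wt, 6 were called higher and 2 lower, beside 27.9% of all genes. T was at 119 and 117 TPM in CB against 8.66 and 7.89 TPM in BC, and *Foxa2*, *Eomes*, *Gata6* and *Sox17* were higher too (log2 fold change 2.49, 1.62, 1.76 and 1.54). *Foxa2* and T kept their calls with each sample left out, while *Eomes* (1.57 to 1.65) and *Sox17* (1.32 to 1.80) lost theirs with any of the 4 left out, and *Gata6* without either BC replicate (1.71 to 1.81 over the 4). *Pax6* was lower in CB (-1.50, not called without either CB wt replicate), and *Olig2*, which again passed only through the BC samples, was called as well (-7.98).

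The subunits varied together to a different extent. Over the 12 samples, which share lines and differ in depth between the crosses, Pearson's r of log2(TPM + 1) was 0.93 for *Jarid2* and *Eed*, 0.89 for *Ezh2* and *Eed*, and 0.81 for *Suz12* with *Mtf2*. It was -0.69 for *Suz12* and *Ring1*. Among all tested genes, the pattern most like that of *Rnf2* was that of *Scyl3* (r = 0.98), followed by *Ivns1abp* (0.98) and *Ccdc160* (0.97), of which *Scyl3* and *Ivns1abp* also lie on chromosome 1. The genes closest to *Ezh2* were *Pipox* (0.98), *4930558J18Rik* (0.97) and *Ano7* (0.96). Of these, *4930558J18Rik* and *Ano7* lie on chromosome 1, although *Ezh2* lies on chromosome 6. Those closest to *Jarid2* were *Ccdc36* (0.97), *Smg9* (0.96) and *Zswim7* (0.96).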

How the data were processed

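RNA-seq libraries (Illumina TruSeq V2, unstranded) were made from 12 samples. The authors deposited estimated counts per gene, unnormalized and per sample, of fragments mapped to the BL6 genome (mm10), to a pseudo-cast genome or to either, and of fragments with BL6 or cast SNPs. Mapping was done by the authors with TopHat and Bowtie2 (version 2.2.5 in the submitters' processing notes), keeping unique reads. The counting tool and annotation were not given in the sources used here. Depth was 49975599 to 89070402 fragments per sample, of which 7.84% to 10.1% carried the SNPs of a given strain.

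Here, estimated counts from either genome were rounded to whole numbers. TPM used GENCODE M21 transcript lengths (23310 genes matched by symbol, 1036 given the median of 2283.5 bp). Genes above 1 TPM in at least 1 sample entered a quasi-likelihood fit in edgeR 4.0.16 (R 4.3.3, limma 3.58.1; TMM, 5 group means over all 12 samples, Benjamini-Hochberg adjustment) and called at FDR under 0.05 and at least 1.5-fold. The choice of this pooled model lets groups of 2 share the spread of all 5 groups. Genes that the exonic BC clones also lack by the study's results (*Pdha1*, *Map3k15*, part of *Sh3kbp1*) were kept in the tests. Allelic ratios were tested with samples as blocks. Log2 ratios of single samples used TMM-scaled counts with a prior count of 2. Named genes were the members, the edited gene with *Kdm6b* and *Uty*, and for each list those called in any comparison or with the largest changes in the KO comparisons. Members and lists were chosen with earlier results of these data known. Alternatives were DESeq2 1.42.0, RLE and upper quartile scaling, no filter or 5 TPM, the BL6 genome alone, the groups compared alone, a replicate block, ΔE1 and ΔE3 averaged, other SNP minimums (10 or 50) and leaving out each sample. Tables and figures were made with Python 3.11.15, pandas 2.3.3, numpy 2.4.6, scipy 1.17.1 and matplotlib 3.10.9. The tests were tested on simulated data. ChIP-seq and other data of the study were not analysed here.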

Additional observations from a re-analysis of the deposited data

How the results depend on the processing

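No member was called between KO and wt in either cross, or in their difference, under any alternative. The counts over all genes moved. With DESeq2 there were 434 calls in BC, 489 in CB and 775 for the difference between crosses, against 61, 56 and 95. With the groups compared alone there were 4, 0 and 9, and with ΔE1 and ΔE3 averaged 118 in BC and 344 for the difference. Leaving out each sample gave 6 to 508 in BC, 0 to 841 in CB, 3 to 786 for the difference, 4500 to 4661 for female against male (5685 with all samples) and 2606 to 2783 for CB against BC wt (4086 with all samples). A group left with 1 sample was assumed to vary like the others. For the allelic ratio the counts were 1 in BC with a minimum of 10 SNP fragments and 1 with the cross fitted alone, and 0 in CB with the cross fitted alone, and leaving out samples gave 0 to 240 in BC and 0 to 75 in CB. Wt replicates share numbers, and with a replicate block 6589 genes were called for female against male and 5143 for CB against BC wt. Same-numbered samples had deviations with r = 0.19 and 0.06 over 2 pairs, so the numbers are not known to pair the samples, and the KO clones carry none. Signs turned for values near 0 and for *Rybp*, which had been called higher in CB than in BC wt, and the cause was not tested. These were *Ezh2* in BC without the filter (-0.0032), *Rnf2* in BC with upper quartile scaling (0.028) or a minimum of 5 TPM (0.0054), *Phf19* for the difference with ΔE1 and ΔE3 averaged (0.066), *Suz12* for CB against BC wt with upper quartile scaling (-0.0019) or without the filter (-0.00075), *Rybp* there with the BL6 genome alone (-0.13), and the allelic change of *Suz12* in BC with a minimum of 10 SNP fragments (-0.0058) and of *Jarid2* in CB with the cross fitted alone (0.0048). With each sample left out, log2 changes in BC ran from -0.013 to 0.030 for *Ezh2*, -0.0055 to 0.26 for *Eed*, -0.0019 to 0.30 for *Jarid2*, -0.12 to 0.050 for *Rnf2*, -0.28 to 0.041 for *Ring1*, -0.26 to 0.097 for *Bmi1*, -0.38 to 1.75 for *Hand1*, -0.048 to 0.17 for *Lcor* and -0.52 to 0.81 for *Uty*. In CB they ran from -0.037 to 0.45 for *Bmi1*, -0.036 to 0.14 for *Kdm6b* and -0.49 to 0.019 for *Tbx3*. They were -0.32 to 0.43 for *Phf19* in the difference and -0.049 to 0.095 for *Suz12* in CB against BC wt. Allelic changes in BC ran from -0.26 to 0.048 for *Ezh1*, -0.045 to 0.016 for *Ezh2*, -0.097 to 0.12 for *Suz12*, -0.023 to 0.079 for *Mtf2*, -0.023 to 0.27 for *Ring1* and -0.25 to 0.12 for *Bmi1*. In CB they ran from -0.24 to 0.19 for *Ezh1*, -0.086 to 0.096 for *Suz12*, -0.047 to 0.014 for *Jarid2*, -0.55 to 0.43 for *Rnf2* and -0.48 to 0.27 for *Bmi1*. Of the 4 members called for female against male, 1 (*Ezh1*) kept its call with every sample left out, and of the 4 for CB against BC wt, 2 (*Eed* and *Jarid2*) did. In the first comparison *Rnf2* lost its call with upper quartile scaling (-0.57) and a minimum of 5 TPM (-0.58), and *Jarid2* gained one with the groups alone (-0.59), without the filter (-0.60) and with the block (-0.59). In the second, *Phf19* (-0.59) and *Bmi1* (-0.70) gained calls with the groups alone and with the block. Depth limits the allelic values of *Bmi1* (42 to 125 SNP fragments) and *Ring1* (103 to 231).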
